A study of Mus musculus with 2 samples.

Results

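The GABA-B receptor is the metabotropic receptor for GABA. It works only as a pair of Gabbr1, which binds GABA, and Gabbr2, which couples to Gi/o proteins, and through them it opens Kir3 potassium channels and closes presynaptic calcium channels. Auxiliary subunits of the KCTD family (KCTD8, KCTD12 and KCTD16) bind the tail of Gabbr2 and set how fast and how lastingly the receptor signals. In the mature cerebellum the receptor is known for its high density in the molecular layer, on Purkinje cell spines and on the parallel fibres of granule cells.

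The 5 genes of this complex, Gabbr1, Gabbr2, Kctd8, Kctd12 and Kctd16, were taken by symbol from the 32285 genes counted by single-nucleus RNA-seq in the cerebellum of mice at postnatal day 1. Each symbol was found on a single row. The genes were chosen by their measured levels in these 2 libraries, above all the lower Kctd8 over all nuclei, so the values below describe them and test nothing. One library held control littermates without Cre, labelled Tox3f/f or Tox3f/+. The other held conditional knockouts (cKO), labelled Nestin-cre;Tox3f/f, and each library pooled 12 cerebella. Nestin-Cre recombines in neural precursors, so neurons and most glia descend from cells that carried it. As the controls carried no Cre, an effect of Cre and one of the deletion cannot be told apart.

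There was 1 library per group and therefore no replicate and no test. Intervals in parentheses are exact 95% intervals that cover counting error alone, not the spread between animals or libraries. Reads amplified from the same molecule were counted once as a unique molecular identifier (UMI). Levels are UMIs of a gene per 1000000 UMIs of the nuclei named (CPM), and a ratio is the CPM of the cKO-labelled library over that of control. After filtering, 4667 control nuclei with 20493455 UMIs and 6555 cKO-labelled nuclei with 30169066 UMIs were kept, at medians of 3978 and 4025 UMIs, and 9 barcodes occurred in both libraries. Tox3 itself did not check the labels, since UMIs outside a deleted part would still be counted. Its level was 104 and 118 CPM over all nuclei, and 253 and 547 CPM in granule neuron progenitor-like nuclei.

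Nuclei were grouped into 26 clusters, of which 23 received 1 of 11 class names from marker genes, and a cluster is called here by genes among its 10 leading ones. The names were rebuilt here, and one further cluster, led by Dchs2 and Zfhx4, stayed unnamed. A pair of clusters of low depth, with medians of 619 and 575 UMIs per nucleus in the 2 libraries, held 21.7% of control nuclei and 10.7% of cKO-labelled nuclei, and they entered the values over all nuclei only. Free RNA was not subtracted, so the level in microglia/macrophage-like nuclei, which descend from no neural precursor, is given as background beside low values. Within the named classes a lower level can mean less RNA per nucleus or fewer expressing nuclei of a subtype that was not separated, and these cannot be told apart.

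Kctd8, Kctd16 and Gabbr2 are long genes that are almost wholly intron, and nuclei hold much unspliced RNA. On GRCm38, Kctd8 spans 232 kb of the minus strand of chromosome 5 (69109285 to 69341679), and exons make up 1.45% of it. Gabbr2 spans 330 kb of the minus strand of chromosome 4 (46662305 to 46991873), and Gabbr1 spans 29.1 kb of the plus strand of chromosome 17 (37045966 to 37075067). Kctd12 is exon throughout, 6.06 kb on the minus strand of chromosome 14 (102976581 to 102982637).

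The promoters of Kctd8, the member that differed most between the libraries, and of Kctd12, the member with the fewest UMIs, are shown as the 250 bases before the RefSeq start on GRCm38.p6, read along the gene's own strand. Both lie upstream of the gene, outside its exons. Capitals mark CAGCTG, a palindromic E-box, the class of site that basic helix-loop-helix factors such as Atoh1 bind.
Kctd8, chr5:69341710-69341959: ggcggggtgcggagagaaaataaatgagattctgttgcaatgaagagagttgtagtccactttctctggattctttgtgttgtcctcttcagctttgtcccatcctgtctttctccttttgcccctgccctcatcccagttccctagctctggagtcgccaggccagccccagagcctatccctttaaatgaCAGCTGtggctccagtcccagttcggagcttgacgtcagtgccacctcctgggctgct
Kctd12, chr14:102982638-102982887: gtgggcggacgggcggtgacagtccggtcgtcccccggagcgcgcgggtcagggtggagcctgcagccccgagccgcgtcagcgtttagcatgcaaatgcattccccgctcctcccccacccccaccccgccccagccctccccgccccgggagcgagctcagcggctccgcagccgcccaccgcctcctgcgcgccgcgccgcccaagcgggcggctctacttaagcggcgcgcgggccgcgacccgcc
The Kctd8 window holds 1 CAGCTG, from 58 to 53 bases before the start, and 5 CpG dinucleotides at a GC content of 53.6%. The Kctd12 window holds no CAGCTG, 36 CpG dinucleotides and a GC content of 77.6%. CAGCTG reads the same on both strands, and 4271 of 32851 RefSeq promoter windows of this length hold it. The wider motif CANNTG, which includes CAGCTG, occurs in 66.2% of the windows and once in each of these 2. A match of letters is no evidence of binding.

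Over all nuclei, Kctd8 was the only 1 of the 5 genes whose level differed past 1.5-fold between the libraries. It stood at 473 CPM in control and 222 CPM in the cKO-labelled library, a ratio of 0.470 (0.455 to 0.485), and none was higher. Of the 17602 genes with at least 50 UMIs, 5.81% were lower past 1.5-fold and 5.26% were higher. Gabbr1 stood at 110.3 CPM in control and 113 in the cKO-labelled library, a ratio of 1.03 (0.973 to 1.08). Gabbr2 stood at 187 and 214 CPM, a ratio of 1.15 (1.10 to 1.19). Kctd16 stood at 213 and 219.8 CPM, a ratio of 1.03 (0.992 to 1.07), and Kctd12 at 6.25 and 6.20 CPM on 128 and 187 UMIs. For Kctd16 and Gabbr2 the ratios within classes lay on both sides of 1.

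**Figure D1:**
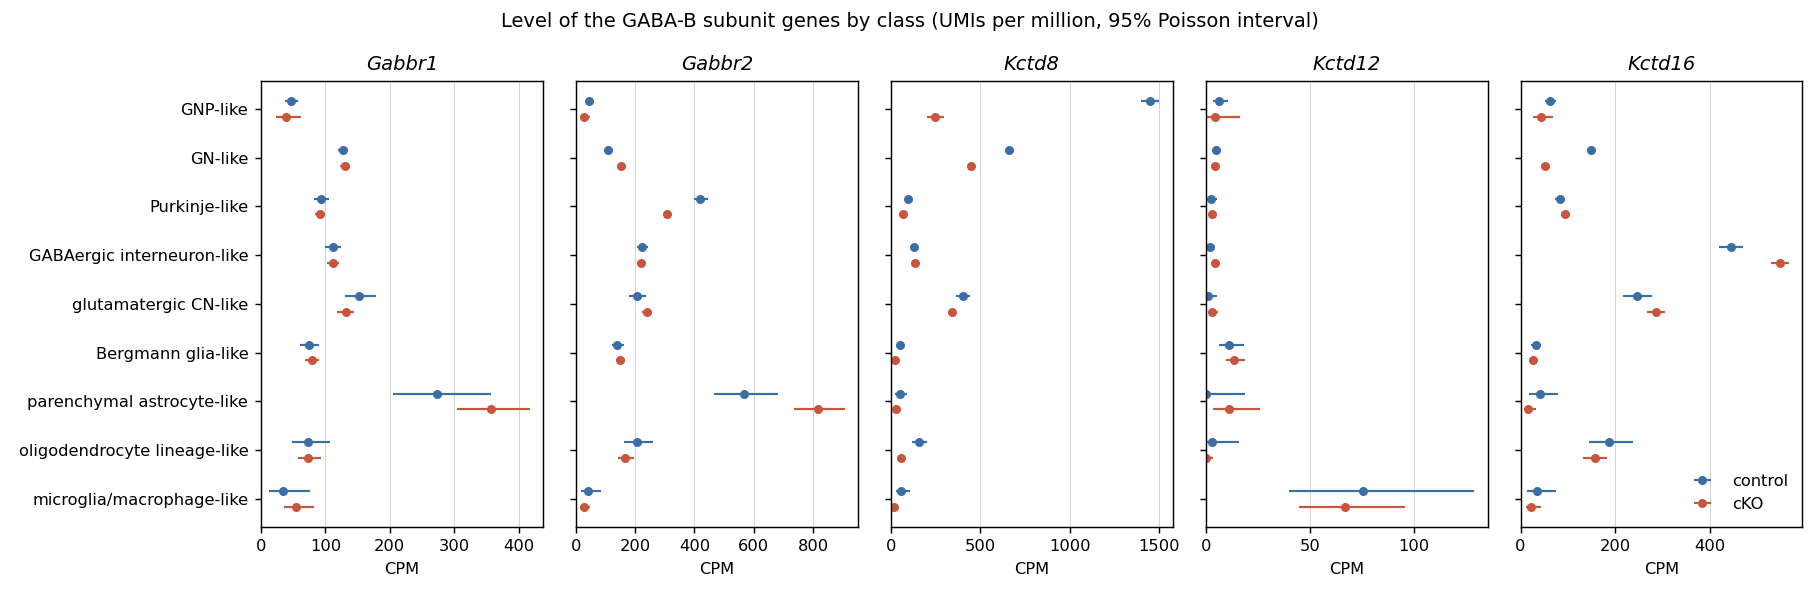
Level of each gene in 9 classes, as CPM (UMIs per 1000000 UMIs) on linear axes that differ between panels, for the control library (blue) and the cKO-labelled library (red); points are the pooled level of a class and bars the exact Poisson interval. Kctd8 stands out in control GNP-like nuclei at 1448 CPM, Kctd16 in GABAergic interneuron-like nuclei, Gabbr1 and Gabbr2 in parenchymal astrocyte-like nuclei, and Kctd12 in microglia/macrophage-like nuclei. GNP, granule neuron progenitor; GN, granule neuron; CN, cerebellar nuclei.

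The subunit that binds GABA, Gabbr1, was the most even of the 5 across classes. It was highest in parenchymal astrocyte-like nuclei in both libraries, at 274 CPM (206 to 357) in control and 358 CPM (305 to 418) in the cKO-labelled library, above the next class in each beyond counting error. Nuclei named after glutamatergic neurons of the cerebellar nuclei (CN-like) followed at 153 and 131 CPM, and granule neuron-like (GN-like) nuclei at 127 and 131 CPM. From there down the order of the control classes could not be told apart step by step, since the intervals of neighbours overlapped, and it ended with granule neuron progenitor-like (GNP-like) nuclei at 47.0 CPM and the microglia/macrophage-like background at 34.7 CPM. In none of 9 classes with at least 20 nuclei did the interval of the Gabbr1 ratio leave out 1. The narrowest was in GN-like nuclei, at 1.03 (0.943 to 1.12). When GNP-like and GN-like nuclei were joined, the ratio was 1.15 (1.05 to 1.25), where GNP-like nuclei were 512 of 2036 in control and 116 of 2014 in the other library. In these joined nuclei 2 of 5 members, Kctd8 and Kctd16, were lower past 1.5-fold and 1, Gabbr2, was higher, where 10.6% and 4.02% of measured genes were.

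Gabbr2, the subunit that couples the receptor to G proteins and carries the KCTD proteins, was more uneven. Among classes in control it was highest in parenchymal astrocyte-like nuclei at 568 CPM (467 to 683) and then in Purkinje-like nuclei at 420.0 CPM (397 to 444), apart from each other beyond counting error. GABAergic interneuron-like nuclei held 224 CPM in control, but their clusters differed widely. Gabbr2 was 521 CPM in the Pax2-led cluster, above the Purkinje-like class, and 321 CPM in the one led by Nxph1 and Htr7. In the clusters led by Angpt1, by Vmn2r7 and by Tll2 and C1ql3 it was 262, 171 and 51.1 CPM. GN-like nuclei held 109 CPM and GNP-like nuclei 45.1 CPM, the latter not apart from the microglia/macrophage-like background of 40.5 CPM. In single clusters of the granule lineage, Gabbr2 stood at 33.8 CPM in the cluster led by Cntn2, a cell adhesion gene of granule neurons that have just left the cycle, at 40.3 CPM in the cluster led by Cadps2 and Reln, and at 127 and 172 CPM in those led by Slit3 and by Mylk.

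Between the libraries, Gabbr2 was lower in Purkinje-like nuclei and higher in GN-like and parenchymal astrocyte-like cKO-labelled nuclei. In Purkinje-like nuclei it was 420.0 CPM in control and 306 CPM in the other library, on 1236 and 1841 UMIs, a ratio of 0.730 (0.678 to 0.785). The gap was wider in one of the 2 Purkinje-like clusters. In the one led by Trpc4 and Car8 it was 373 CPM in control and 209 CPM in the cKO-labelled library, a ratio of 0.560 (0.502 to 0.625), and in the one led by Cdh9 and Ebf2 it was 489 and 421 CPM, a ratio of 0.861 (0.779 to 0.953). The cluster led by Trpc4 and Car8 held 174 of 292 control and 391 of 718 cKO-labelled Purkinje-like nuclei. Nuclei with 3 or more Gabbr2 UMIs made up 51.1% of control nuclei of that cluster and 24.8% of cKO-labelled nuclei. Thinned to 1000 UMIs per nucleus, with no Purkinje-like nucleus shallower than that, the share of nuclei with a Gabbr2 UMI was 27.5% against 17.5% in that cluster and 37.2% against 32.0% in the other.

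In GN-like nuclei Gabbr2 was 109 CPM in control and 151 CPM in the cKO-labelled library, a ratio of 1.38 (1.26 to 1.51). The excess was seen in the clusters led by Slit3, at 1.36 (1.21 to 1.53), and by Mylk, at 1.31 (1.12 to 1.54). In the clusters led by Cntn2 and by Cadps2 and Reln, where Gabbr2 was near background in both libraries, the ratios were 0.865 (0.464 to 1.58) and 1.18 (0.820 to 1.71). In parenchymal astrocyte-like nuclei Gabbr2 was 568 and 818 CPM, a ratio of 1.44 (1.16 to 1.80), on only 42 control nuclei and 127 cKO-labelled nuclei. When single nuclei were assigned by marker detection in place of clusters, this ratio came to 5.98 on 6 and 81 UMIs, and only 5 control nuclei belonged to both groupings. Bergmann glia-like nuclei, named after the radial glia of the cerebellum, held 139.9 and 150.4 CPM of Gabbr2, a ratio of 1.07 (0.903 to 1.28). Of these UMIs, 128 of 189 and 301 of 421 lay in a small cluster with the cilia genes Enkur and Pifo among its leading genes. Gabbr2 was 491 and 489 CPM there, against 55.9 and 54.9 CPM in the main cluster led by Gdf10 and Tnc. The small cluster passed 4 markers of Bergmann glia and 4 of parenchymal astrocytes, the main one 5 and 4, so the name of the small one is uncertain.

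**Figure D2:**
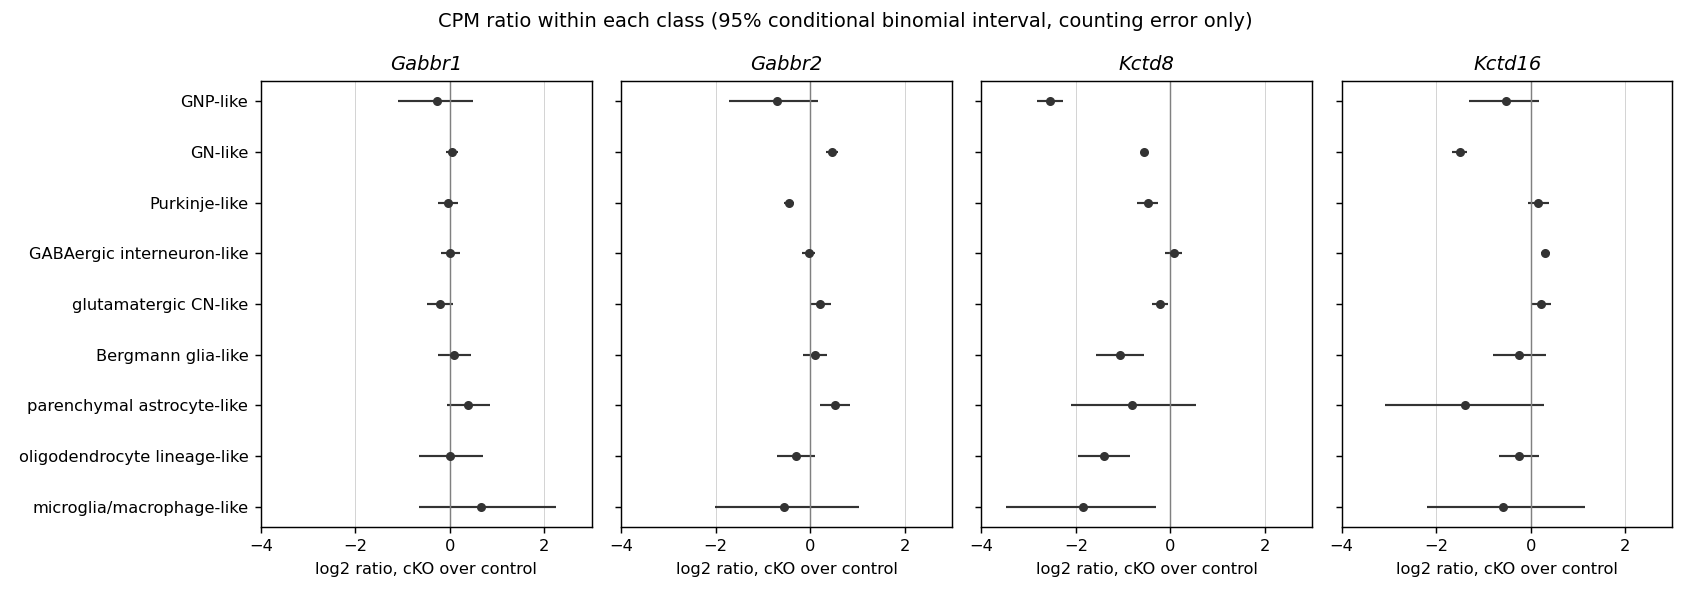
Ratio of the CPM in the cKO-labelled library to that in control within each of 9 classes, on a log2 axis, for the 4 genes with enough UMIs; points are the ratio, bars the exact conditional binomial interval, and the vertical line marks equal levels. Intervals of Gabbr1 cross the line in all 9 classes, Kctd8 lies farthest to the left in GNP-like nuclei (ratio 0.172), and Kctd16 lies left in GN-like nuclei (0.353) and right in GABAergic interneuron-like nuclei (1.23).

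In control, Kctd8 was highest in the nuclei named after granule neuron progenitors, cells of the external granule layer. GNP-like nuclei held 1448 CPM (1396 to 1501), which was 2.19 times the level of GN-like nuclei at 660.2 CPM (642 to 679). Within control GNP-like nuclei it was 1235 CPM in those with a UMI of Mki67, a gene of dividing cells, and 1745 CPM in those without one. CN-like nuclei held 402 CPM, and the remaining classes described here lay between 50.7 and 156 CPM beside a microglia/macrophage-like background of 57.9 CPM. The GNP-like nuclei were 11.0% of control nuclei and held 30.5% of all Kctd8 UMIs of the library, and with GN-like nuclei the granule lineage held 81.5%. Single nuclei carried up to 33 Kctd8 UMIs, 85.9% had at least 1, and 67.0% had 3 or more.

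In the cKO-labelled library this order was different. GN-like nuclei came first at 451 CPM. The GNP-like level of 248 CPM (204 to 300) lay below that of CN-like nuclei, 344 CPM. Within GNP-like nuclei Kctd8 was thus 5.83 times lower, a ratio of 0.172 (0.140 to 0.208) on 2955 and 108 UMIs. Nuclei with a UMI made up 85.9% in control and 31.9% in the cKO-labelled library, at median depths of 3715.5 and 3487.5 UMIs, and 63.6% and 14.6% after thinning to 1000 UMIs, with no nucleus left out. Of the 4 members with at least 50 UMIs in these nuclei, 2 were lower past 1.5-fold, where 16% of 7916 genes were, and 0 were higher, where 9.17% of genes were. The other was Gabbr2, at 45.1 and 27.6 CPM, whose interval held 1 (0.305 to 1.12). Kctd16 was 62.7 and 43.7 CPM, a ratio of 0.697 (0.406 to 1.13).

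The size of the Kctd8 difference varied along the granule lineage. In the GNP-like cluster led by Fgfr4, Col18a1 and Btbd11 it was 1633 CPM in control and 70.2 CPM in the cKO-labelled library, a ratio of 0.0430 (0.0185 to 0.0850) on 1326 UMIs in 238 nuclei and 8 UMIs in 40 nuclei. In the GNP-like cluster led by the mitotic gene Top2a it was 1325 and 312 CPM, a ratio of 0.235 (0.190 to 0.288). In the Cntn2-led cluster it was 652 and 130.1 CPM, 5.01 times lower, on 559 and 89 UMIs. Markers differed in that cluster too, with Gli2 at 197 and 71.6 CPM, Barhl1 at 67.6 and 24.8 CPM, Cadps2 at 2160 and 1007 CPM and Grin2b at 557 and 987 CPM, and their part was not tested. The gap was narrower in the other GN-like clusters. The ratio was 0.543 (0.492 to 0.598) in the cluster led by Cadps2 and Reln, 0.763 (0.722 to 0.806) in the one led by Slit3, and 0.919 (0.814 to 1.04) in the one led by Mylk, where Kctd8 was 327 and 301 CPM. No developmental order was computed.

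The GNP-like nuclei of the 2 libraries also differed in their defining markers. Gli2, a Sonic hedgehog effector, was 659.9 and 649 CPM, and Mki67 and Top2a, genes of dividing cells, were not lower in the cKO-labelled library (376 and 499 CPM for Mki67, 549 and 644 CPM for Top2a). Of the 8 progenitor markers, however, Fgfr4 was at 84 UMIs in control and 0 in the cKO-labelled library, Atoh1 at 16 and 0 UMIs, and Barhl1 at 273 and 3 UMIs. The summed level of the 8 markers was 1967 and 2079 CPM. Markers of granule neurons moved as well in these nuclei. Of 7, 5 were higher in the cKO-labelled library, among them Cntn2 at 47.5 and 166 CPM, Grin2b at 75.9 and 219 CPM and Neurod1 at 76.4 and 131 CPM, while Cadps2 was 1641 and 492 CPM and Neurod2 28.4 and 25.3 CPM. Among GNP-like nuclei with a Gli2 UMI, 410 in control and 97 in the cKO-labelled library, the Kctd8 ratio was 0.188 (0.153 to 0.228). Without a Gli2 UMI, in 102 and 19 nuclei, it was 0.0293 (0.00353 to 0.106), on 2 cKO-labelled UMIs. With an Mki67 UMI, in 261 and 68 nuclei, it was 0.226 (0.178 to 0.283). Without one, in 251 and 48 nuclei, it was 0.109 (0.0719 to 0.158). Among GNP-like nuclei without a Barhl1 UMI, 312 and 114 nuclei, it was 0.175 (0.142 to 0.214), and among those with one, 200 and 2 nuclei, 0.765 (0.307 to 1.58), where the 2 nuclei held 7 UMIs. The part of these markers in the Kctd8 result was not tested.

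**Figure D3:**
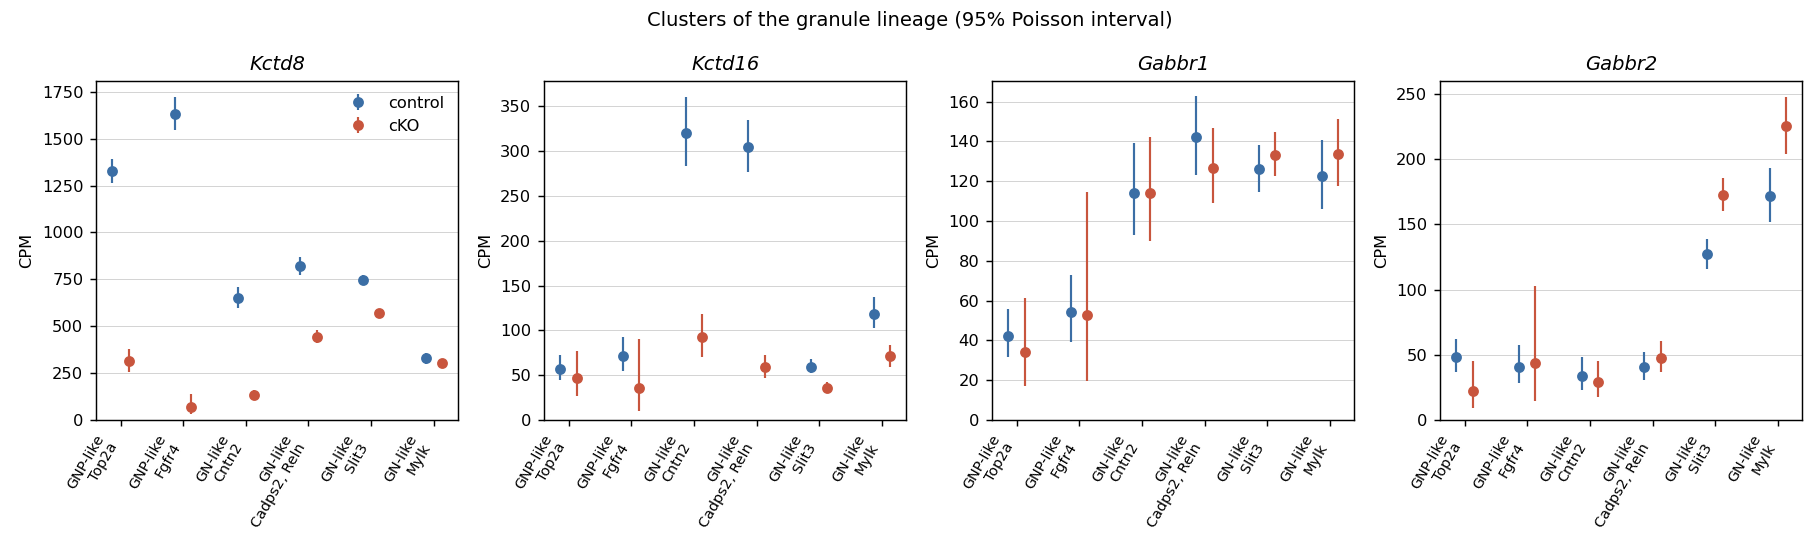
Level in CPM of Kctd8, Kctd16, Gabbr1 and Gabbr2 in the 6 clusters of the granule lineage, named by class and leading gene, for control (blue) and the cKO-labelled library (red); bars are exact Poisson intervals and the axes start at 0. Kctd8 is separated most in the 2 GNP-like clusters and the Cntn2 cluster, Kctd16 in the Cntn2 and the Cadps2, Reln clusters, Gabbr2 in the Slit3 and Mylk clusters, and Gabbr1 overlaps in all 6.

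In the neuronal classes outside the granule lineage the Kctd8 ratio lay between 0.717 and 1.05. GABAergic interneuron-like nuclei held 128 and 135 CPM, a ratio of 1.05 (0.926 to 1.19), but their clusters differed. The ratio was 0.275 (0.125 to 0.576) in the Pax2-led cluster, on 23 and 12 UMIs, and 1.25 (1.01 to 1.55) in the one led by Nxph1 and Htr7. In the clusters led by Tll2 and C1ql3, by Vmn2r7 and by Angpt1 it was 0.985 (0.826 to 1.18), 1.06 (0.655 to 1.77) and 0.425 (0.109 to 1.47). CN-like nuclei held 402 and 344 CPM, a ratio of 0.856 (0.764 to 0.962). Purkinje-like nuclei held 98.2 and 70.4 CPM, a ratio of 0.717 (0.616 to 0.836). It was 0.621 (0.503 to 0.767) in the Purkinje-like cluster led by Trpc4 and Car8 and 0.823 (0.657 to 1.04) in the one led by Cdh9 and Ebf2. In oligodendrocyte lineage-like nuclei Kctd8 was 156 and 58.8 CPM (ratio 0.377, 0.257 to 0.555), and in Bergmann glia-like nuclei 51.1 and 24.3 CPM (0.476, 0.335 to 0.675). The microglia/macrophage-like background moved with these glial values, from 57.9 CPM on 10 UMIs to 16.1 CPM on 7 UMIs, and the part of free RNA in them was not tested. Past 1.5-fold, Kctd8 was the 1 of 5 members in Bergmann glia-like nuclei and the 1 of 4 in oligodendrocyte lineage-like nuclei, where 4.03% and 6.93% of the measured genes were lower by as much and 5.16% and 8.94% were higher. No member reached the minimum of 50 UMIs in microglia/macrophage-like nuclei, where 6.09% of genes were lower and 8.72% higher.

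The Kctd8 ratio over all nuclei was split into class shares and levels within classes. If each class had kept its control level and only the share of UMIs taken by each class had differed, the ratio over all nuclei would have been 0.666. If the shares had stayed and only the levels within classes had differed, it would have been 0.557, and the observed ratio was 0.470. With nuclei assigned by marker detection in place of clusters, the ratio from shares was 0.767. For Kctd16 the same arithmetic gave 1.07 from shares and 0.874 from levels, against 1.03 observed, and for Gabbr2 it gave 1.19 and 0.996, against 1.15. For Gabbr1 it gave 1.02 and 1.00.

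**Figure D4:**
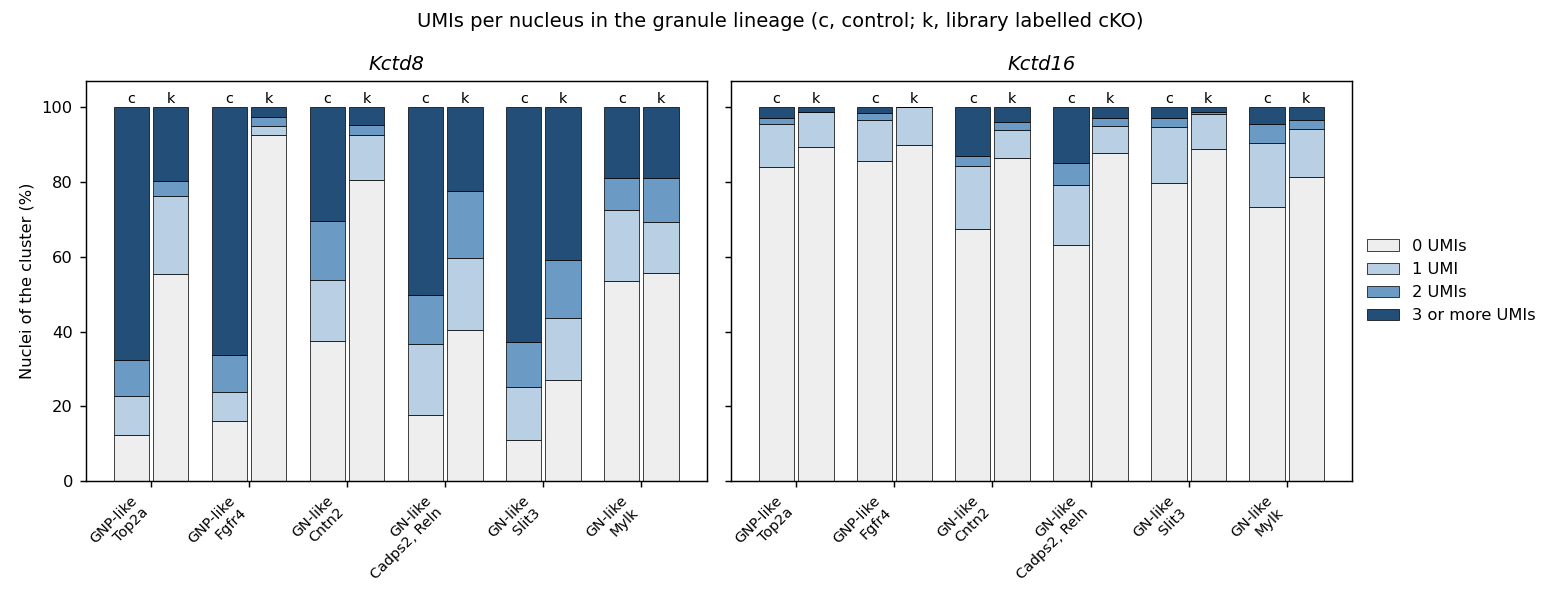
Share of nuclei (%) with 0, 1, 2, or 3 or more UMIs of Kctd8 (left) and Kctd16 (right) in the 6 clusters of the granule lineage, side by side for control (c) and the cKO-labelled library (k). In the GNP-like cluster led by Fgfr4, 158 of 238 control nuclei and 1 of 40 cKO-labelled nuclei held 3 or more Kctd8 UMIs; for Kctd16, nuclei with 3 or more UMIs made up 14.9% and 2.96% in the Cadps2, Reln cluster.

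Kctd16, on the plus strand of chromosome 18 (40256962 to 40531630, 275 kb), had another pattern. In control it was highest among named classes in GABAergic interneuron-like nuclei at 444 CPM (420 to 469), while CN-like and oligodendrocyte lineage-like nuclei held 245 and 187 CPM, with overlapping intervals. GN-like nuclei held 148 CPM, Purkinje-like nuclei 83.2 CPM and GNP-like nuclei 62.7 CPM, and parenchymal astrocyte-like and Bergmann glia-like nuclei lay near the microglia/macrophage-like background of 34.7 CPM. Within the interneuron-like class a single cluster, led by Tll2 and C1ql3, carried most of it, at 958 CPM in control with a UMI in 92.0% of its nuclei. The unnamed cluster led by Dchs2 and Zfhx4, with 54 and 100 nuclei, held more Kctd16 than any named class, at 1470 CPM (1364 to 1581) and 1248 CPM (1170 to 1330).

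Between the libraries Kctd16 differed most in GN-like nuclei, where it was 148 CPM in control and 52.3 CPM in the cKO-labelled library, 2.83 times lower (ratio 0.353, 0.315 to 0.395, on 1112 and 431 UMIs). It was the 1 of 5 members past 1.5-fold in these nuclei, where 3.9% of 13140 genes were lower and 3.07% were higher by as much. Kctd8 missed that line at 660.2 and 451 CPM, a ratio of 0.682 (0.654 to 0.712). The 4 GN-like clusters had Kctd16 ratios below 1 beyond counting error. They were 0.193 (0.151 to 0.244) in the cluster led by Cadps2 and Reln, 0.287 (0.215 to 0.379) in the one led by Cntn2, and 0.600 (0.485 to 0.742) and 0.597 (0.474 to 0.750) in those led by Slit3 and by Mylk. After thinning, nuclei with a Kctd16 UMI made up 17.6% of control nuclei and 4.48% of cKO-labelled nuclei in the cluster led by Cadps2 and Reln.

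Among the control clusters of the granule lineage, Kctd8 was highest in the progenitor clusters and Kctd16 in the clusters led by Cntn2 and by Cadps2 and Reln (321 and 305 CPM). Among GN-like nuclei with a Cntn2 UMI, 514 in control and 483 in the cKO-labelled library, the Kctd16 ratio was 0.296 (0.242 to 0.359), and among those without one it was 0.427 (0.370 to 0.492). Among those with a Cadps2 UMI it was 0.324 (0.287 to 0.365), and among the 125 and 177 nuclei without one 0.774 (0.537 to 1.11), an interval that held 1. With nuclei assigned by marker detection in place of clusters, the Kctd16 ratio in GN-like nuclei was 0.555 (0.511 to 0.604). That grouping took in nuclei of other classes. GN-like nuclei held 67.0% of its Kctd16 UMIs in control and 42.5% in the other library, and in the nuclei common to both groupings the levels were 154 and 50.8 CPM.

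In the opposite direction, GABAergic interneuron-like nuclei held 444 CPM in control and 548 CPM in the cKO-labelled library, a ratio of 1.23 (1.16 to 1.32). The ratio was above 1 beyond counting error in the cluster led by Tll2 and C1ql3, at 958 and 1218 CPM (1.27, 1.18 to 1.37), and in the one led by Nxph1 and Htr7, at 172 and 226 CPM (1.32, 1.07 to 1.63), while in the Pax2-led cluster it was 84.9 and 82.2 CPM (0.969, 0.640 to 1.49). In the remaining 2 clusters, led by Vmn2r7 and by Angpt1, it was 0.816 (0.596 to 1.13) and 0.528 (0.167 to 1.59). With nuclei assigned by marker detection the ratio was 1.05 (0.973 to 1.13), an interval that held 1. In CN-like nuclei the ratio was 1.17 (1.01 to 1.35), on 245 and 286 CPM. It was 1.09 (0.941 to 1.26) in the main CN-like cluster, led by Cpne4 and Meis2, and 2.30 (1.28 to 4.42) in a small one led by Tfap2d and Lhx9, on 14 and 70 UMIs. Of the measured members, 0 differed past 1.5-fold in Purkinje-like nuclei, where 4.45% of genes were lower and 2.34% higher, or in interneuron-like nuclei (2.88% and 2.54%). The same held in CN-like nuclei (4.68% and 5.92%) and for the 2 members measured in parenchymal astrocyte-like nuclei (6.01% and 8.11%).

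**Figure D5:**
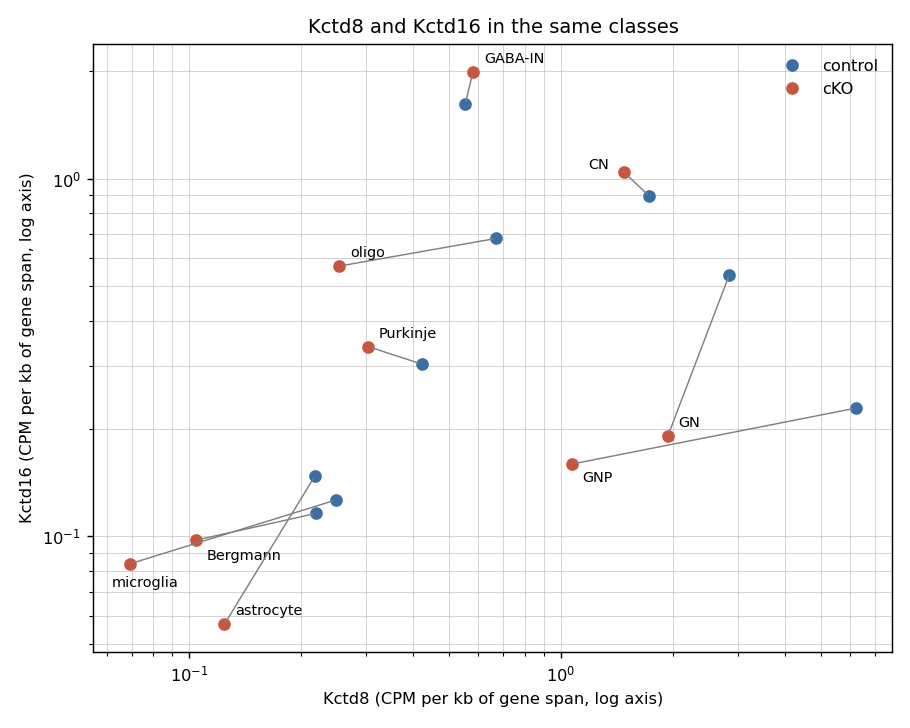
Kctd16 against Kctd8 in 9 classes, both as CPM per kb of gene span on log axes, for control (blue) and the cKO-labelled library (red), with a line joining the 2 points of a class and its short name beside the red point. GNP-like nuclei move left along the Kctd8 axis, from 6.23 to 1.07 CPM per kb, GN-like nuclei move down the Kctd16 axis, from 0.539 to 0.190 CPM per kb, and the 2 CN-like points stay close together.

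Levels were also divided by gene span. The libraries read 3' ends, and whether the UMIs of a gene grow with its span was not tested. Per kb, Kctd8 exceeded Kctd16 in control GNP-like nuclei (6.23 against 0.228 CPM per kb) and GN-like nuclei (2.84 against 0.539 CPM per kb). Kctd16 exceeded Kctd8 in control interneuron-like nuclei (1.62 against 0.553 CPM per kb). By CPM the order of these 2 genes was the same in these classes. In the cKO-labelled library the excess of Kctd8 over Kctd16 in GNP-like nuclei was smaller, at 1.07 against 0.159 CPM per kb, and in interneuron-like nuclei Kctd16 stood at 1.99 and Kctd8 at 0.580 CPM per kb.

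Kctd12, which in the mature brain speeds the desensitisation of the receptor response, had the lowest CPM of the 5 genes over all nuclei. It was highest in microglia/macrophage-like nuclei in both libraries, at 75.2 CPM (40.1 to 129) on 13 UMIs and 66.6 CPM (44.6 to 95.7) on 29 UMIs. Bergmann glia-like nuclei came next at 11.1 and 13.6 CPM, and the neuronal classes described here held between 0.955 and 6.37 CPM. Per kb of gene span, which for Kctd12 is far shorter and holds no intron, the order differed from that by CPM in control GNP-like, GN-like and Purkinje-like nuclei. That difference comes from the division by span alone, so it does not show which gene has more RNA. In control GNP-like nuclei Kctd12 stood at 1.05 and Kctd16 at 0.228 CPM per kb, and in GN-like nuclei at 0.836 and 0.539 CPM per kb. In control Purkinje-like nuclei Kctd12 stood at 0.449, Kctd8 at 0.423 and Kctd16 at 0.303 CPM per kb, where Kctd12 rests on 8 UMIs. In oligodendrocyte lineage-like nuclei 0 of 253 cKO-labelled nuclei held a UMI, which allows a share of up to 1.19%. A difference between the libraries was not detectable at this depth in any class, with a ratio of 0.992 (0.788 to 1.25) over all nuclei.

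Gabbr1 and Gabbr2 make a receptor only together, and both were found in the same nucleus in 14.9% of control nuclei and 19.6% of cKO-labelled nuclei, and these shares depend on depth. Parenchymal astrocyte-like nuclei were highest after thinning to 1000 UMIs, at 11.3% and 16.3%, with 2 nuclei left out, and 21 of 42 and 72 of 127 nuclei before it. Purkinje-like nuclei held both in 54.5% and 41.6% of nuclei, and in 2.98% and 2.18% after thinning. In GNP-like nuclei the pair was found in 11 of 512 and 2 of 116 nuclei. Before thinning, the product of the single shares of Gabbr1 and Gabbr2 was 10.8% and 15.5% over all nuclei, and 50.8% and 40.1% in Purkinje-like nuclei.

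Of the nuclei with both receptor subunits, those that also held a UMI of Kctd8, Kctd12 or Kctd16 were fewer in the cKO-labelled library in GN-like nuclei, at 182 of 222 in control (82.0%) and 225 of 330 (68.2%). After thinning to 1000 UMIs these shares were 40.9% and 33.8%. Kctd8 and Kctd16 were lower in GN-like nuclei as a whole, and whether the shares are particular to nuclei with both subunits was not tested. In Purkinje-like nuclei the shares were 64.2% and 48.5% before thinning, and after it the cKO-labelled share was no longer below that of control (13.5%). In CN-like nuclei they were 81.1% and 75.9%, and 31.3% and 31.6% after thinning. Parenchymal astrocyte-like nuclei, which were highest in both receptor subunits, had a KCTD UMI in 7 of 21 and 12 of 72 of such nuclei. After thinning to 1000 UMIs these shares were 10.7% in control and 4.86% in the cKO-labelled library. The control share was then close to the 13.5% of Purkinje-like nuclei.

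Across 9 classes with at least 50 nuclei in both libraries, 18 points in all, the genes whose log2(CPM + 5) followed each member best were picked among 10537 genes with at least 500 UMIs. Chrm3, a muscarinic acetylcholine receptor gene, came first for Kctd8 at r = 0.91, followed by Gm27016 and Gm16226 at 0.89 and 0.87. Zfp804a, Dscaml1 and Gm20754 came first for Kctd16, at r of 0.92, 0.90 and 0.89. Selenop, a selenium transport gene, Arpc4 and Hipk3 came first for Kctd12, at 0.96, 0.95 and 0.95. Gm20642, Gm20641 and Nrg3 led for Gabbr1, at 0.94, 0.94 and 0.93, and 1700024B18Rik, Fgf14 and St6gal2 for Gabbr2, at 0.92, 0.91 and 0.91. Among the members themselves Gabbr1 and Gabbr2 were most alike at 0.76, and Kctd12 and Gabbr2 least at -0.63. The points share libraries and depth, and r is a description.

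The other genes of the pathway were read from lists. Of 30 genes for effectors and partners of the receptor, 29 had at least 50 UMIs over all nuclei, and their median log2 ratio was 0.11, beside -0.02 over all genes. Of these, 1 was lower and 1 was higher past 1.5-fold, where 5.81% and 5.26% of all measured genes were. The lower one was Kcnj6, a subunit of the Kir3 channels that the receptor opens, at 511 and 320.0 CPM (ratio 0.626, 0.609 to 0.644). Within the granule lineage, which made up 43.6% of control and 30.7% of cKO-labelled nuclei, Kcnj6 was 924 and 844 CPM (0.913, 0.885 to 0.941). There, 0 of 26 measured genes of the list were lower past 1.5-fold and 2 were higher, where 10.6% and 4.02% of all measured genes were. In Purkinje-like nuclei Kcnj6 was 109 and 62.9 CPM (0.579, 0.497 to 0.674). The one higher over all nuclei was Rgs8, a regulator of G protein signalling, at 7.32 and 11.8 CPM (1.61, 1.33 to 1.96). Short of that line, Kcnj3, the other main Kir3 subunit, was 380.2 and 268 CPM (0.705, 0.684 to 0.728) and within the granule lineage 613 and 605 CPM, Gnb2, a G protein beta subunit, had a ratio of 0.804, and Gng4 and Adcy8, a G protein gamma subunit and an adenylyl cyclase, 1.40 and 1.37. Kcnj9 was 7.47 and 8.52 CPM (1.14, 0.930 to 1.40), and Gnao1, the main neuronal Go subunit, 255 and 240.1 CPM (interval of the ratio 0.907 to 0.974).

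All 8 genes for the making, packaging and removal of GABA were measured, with a median log2 ratio of 0.33 over all nuclei. Over all measured genes, 5.81% were lower and 5.26% higher past 1.5-fold. In this list none was lower and 2 were higher by as much. These were Slc6a11, the GABA transporter of astrocytes, at 31.9 and 55.8 CPM (ratio 1.75, 1.60 to 1.92), and Slc32a1, the vesicular GABA transporter, at 41.2 and 64.0 CPM (1.55, 1.43 to 1.69). The GABA-making enzymes Gad1 and Gad2 had ratios of 1.24 (1.19 to 1.30) and 1.47 (1.39 to 1.56), and Slc6a13, Aldh5a1 and Abat, the lowest of the list, 1.05, 1.08 and 1.08. Interneuron-like nuclei made up 10.8% of control nuclei and 18.1% of cKO-labelled nuclei, and parenchymal astrocyte-like nuclei 0.900% and 1.94%. Within the granule lineage 0 of 7 measured genes of this list were lower past 1.5-fold and 3 were higher. There, 10.6% and 4.02% of all measured genes were. The median log2 ratio of the list was 0.44 in the granule lineage and 0.03 in interneuron-like nuclei. In interneuron-like nuclei 0 of 7 were past 1.5-fold in either direction, where 2.88% of genes were lower and 2.54% higher. The part of the class shares in the ratios over all nuclei was not tested.

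Of 19 other KCTD genes, which mostly serve other partners such as cullin 3, 17 were measured over all nuclei, with a median log2 ratio of -0.12. One was lower past 1.5-fold and none was higher, where 5.81% and 5.26% of all measured genes were. The lower one was Kctd10, at 7.42 and 4.31 CPM (ratio 0.581, 0.456 to 0.739). Next lowest were Kctd9 and Kctd17, with ratios of 0.763 (0.665 to 0.875) and 0.793 (0.690 to 0.912). The highest were Kctd2 at 1.12 (0.963 to 1.30), Kctd21 at 1.04 and Kctd12b at 1.00. Within the granule lineage 3 of 13 measured were lower past 1.5-fold and 0 higher, where 10.6% and 4.02% of all measured genes were. Their median log2 ratio there was -0.44, beside -0.08 over all genes. In GN-like nuclei 1 of 13 was lower and 0 higher, where 3.9% and 3.07% of genes were. In GNP-like nuclei 0 of 8 were lower and 1 was higher, where 16% and 9.17% of genes were.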

How the data were processed

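Single-nucleus RNA-seq libraries (10x Genomics, 3' end) of 2 pools of 12 cerebella were analysed. The deposited values are raw counts of UMIs per gene and nucleus, made by the authors with Cell Ranger 7.0.1 on mm10; whether intronic reads were counted is not given in the sources used here. Nuclei over 25% mitochondrial UMIs and the Scrublet top 0.8% per 1000 barcodes were removed (189 control, 386 cKO). The automatic threshold marked 1 control barcode and was not used. SoupX correction was not applied, and no cluster was removed.

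Clusters were made with Seurat 5.3.0 (canonical correlation integration, resolution 0.8) without the 5 genes and the lists as features. A cluster was named, ending in "-like", from at least 3 markers that were detected in 10% of its nuclei and 2-fold higher than elsewhere; the mean log2 fold over markers had to reach 1. This scoring was set after clusters were seen and adjusted once, when 1 cluster had received a name its defining markers went against. A cluster lost its name if its median depth times 3 was below that of its library and none of its 10 leading genes was a marker of its class. It also lost it if its first 5 leading genes held a marker of another class that passed, or its 10 held more markers of another class. The values of 1 named class are not reported here. The members, lists and named genes (per list the 3 lowest and 3 highest ratios, with Kcnj3, Kcnj6, Kcnj9, Gnao1, Gad1 and Gad2) were chosen with earlier results of these data known. Other genes in the text were named after their values were seen.

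UMIs were summed per class and library. Exact 95% intervals were Poisson for levels, Clopper-Pearson for shares and conditional binomial for ratios (scipy 1.17.1, Python 3.11.15). A count of 0 allows a share of 3 counts of the total. Thinned shares are means over all thinnings to 1000 UMIs. The scripts were tested on simulated data. Loci come from GENCODE vM21 and promoters from RefSeq, where 4 of 5 members matched; 13 annotated genes overlap a member, none of them in the counted table. Alternatives changed scaling, doublets, depth, mitochondrial limit, sex of the nuclei, resolution, features, integration and the assignment of nuclei.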

Additional observations from a re-analysis of the deposited data

Results flagged for a closer look

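Kctd16 and Gabbr2 stood out because their ratios lay below 1 in some classes and above 1 in others, in each case by more than counting error. The difference between classes was not tested, as each class has 1 library per group.

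The Kctd16 ratio was 0.353 (0.315 to 0.395) in GN-like nuclei, and 1.23 (1.16 to 1.32) in GABAergic interneuron-like and 1.17 (1.01 to 1.35) in CN-like nuclei. In the main CN-like cluster it was 1.09 (0.941 to 1.26), an interval that held 1. The Gabbr2 ratio was 0.730 (0.678 to 0.785) in Purkinje-like nuclei, and 1.38 (1.26 to 1.51) in GN-like and 1.44 (1.16 to 1.80) in parenchymal astrocyte-like nuclei.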

How the results depend on the processing

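In all, 115 alternatives were computed, of which 103 stayed within the counting interval or within 1.5 times the count, and 12 moved. None turned the direction of a ratio whose interval left out 1. Over all nuclei, where the intervals of the reported values held 1, the Kctd16 and Kctd12 ratios lay on both sides of 1 across 8 alternatives, between 0.941 and 1.06 and between 0.899 and 1.08. The Kctd8 ratio in GNP-like nuclei stayed between 0.142 and 0.177 under 9 alternatives, and the Gabbr2 ratio in Purkinje-like nuclei between 0.709 and 0.773. With nuclei thinned to 1000 UMIs, the ratios over all nuclei were 0.404 for Kctd8, 0.941 for Kctd16 and 1.25 for Gabbr2. Of the kept nuclei, 975 in control and 664 in the cKO-labelled library held fewer than 1000 UMIs, too few to thin. With nuclei assigned by marker detection, the ratio was 0.617 for Kctd8 and 0.555 for Kctd16 in GN-like nuclei, 1.05 for Kctd16 in GABAergic interneuron-like nuclei and 5.98 for Gabbr2 in parenchymal astrocyte-like nuclei, and the Kctd8 ratio expected from class shares alone was 0.767. The causes were not tested. Genes past 1.5-fold over all nuclei numbered 1022 lower and 926 higher. With at least 20 UMIs they were 1565 and 1430, and with 1 UMI in each library 2896 and 2523, since more genes of low count were included. The alternatives for Kctd16 and Gabbr2 within classes, single clusters in place of classes and leaving out the low-depth clusters were chosen after the data had been seen. No paired analysis was possible because each group has 1 library.

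With 1 pool per genotype, the spread between animals, dissections and captures is unknown. The cKO-labelled GNP-like nuclei numbered 116, and their Kctd8 level rests on 108 UMIs. Low levels in glia lie near the background of free RNA.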
